A study of Rattus norvegicus with 85 samples.

Results

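Editing of RNA was compared between the prefrontal cortex (PFC) and the amygdala (AMY) of newborn rats whose mothers had been stressed before mating. The samples were chosen by their labels (region, day of birth, first generation and stress line): 6 PFC and 6 AMY samples, 12 of the 85 samples of the series. All came from Sprague-Dawley rats at postnatal day 0 (P0) of the F1 generation. In the line called PRS (pre-reproductive stress), the mothers went through 7 days of unpredictable stress in adolescence. They were later mated with naive males. The pups themselves received no treatment. Each region had 3 female and 3 male samples, and no sample number was used for both regions. The labels do not say which pups were littermates, or whether a PFC and an AMY sample came from the same pup. Samples were therefore tested as unpaired, and p-values measure the spread between these samples. Tissue was taken as bilateral punches of 0.5 mm, so each sample holds all cell types of a small piece of tissue.

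Adenosine deaminases acting on RNA (ADARs) turn adenosine into inosine in double-stranded stretches of a transcript, and ribosomes and sequencing enzymes read inosine as guanosine. In coding sequence this can change an amino acid, and the best known recoded transcripts of the brain encode subunits of glutamate receptors, a GABA-A receptor subunit and the serotonin receptor 5-HT2C. Editing of 5-HT2C alters the loop that couples the receptor to its G protein, and editing of glutamate receptor subunits alters calcium permeability or the kinetics of the channel.

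Levels were measured with mmPCR-seq, in which chosen stretches of transcripts are amplified in a microfluidic multiplex PCR and sequenced. The level of a site is the share of its reads that carry G where the genome has A. The primer pairs define the stretches, and those of the 7 sites that passed the test below are shown without the tails shared by all primers, 5′ to 3′, with capitals for the part that binds the gene.

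Htr2c forward, for sites A, B, C and D: CTTAGTCCGCGAATTGAACC

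Htr2c reverse: GGGGATTATGTCTGGCCTTTA

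Gria2 forward, for the R/G site: TTTTCCTTACTTCCCGAGTCC

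Gria2 reverse: CATCGCCACACCTAAAGGAT

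Gria4 forward, for the R/G site: GAGTTTCAAAACGGCAAGGT

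Gria4 reverse: CTGGAGTCCACGATGAATGAA

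Grik2 forward, for the Q/R and Met/Val sites: TTTGGGCATGAGCTCAGAA

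Grik2 reverse: TGTCATAGCCAGGTTTAGTCC

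Mcrs1 forward: GCTCATGTTCCAGGACTTCAT

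Mcrs1 reverse: TGGCAGCTCATGAAACAGTAT

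The 4 Htr2c sites share 1 pair, as do both Grik2 sites, and their levels come from the same amplified molecules. They are therefore not independent measurements.

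The reads summed over the 146 sites of the study, a read being counted once for each site on it, were 149278 to 2545906 in PFC and 886678 to 2797242 in AMY samples. PFC replicates 36 and 37 were the shallowest, with 149278 and 204588 reads, and replicate 36 had under 50 reads at 15.8% of the sites. Every other sample had at most 3 sites under 50 reads. The panel holds no marker of either region, so the labelled regions could not be checked. Genes known from other cells took up similar shares of the reads in PFC and AMY, with overlapping ranges for each: the medians were 0.582% and 0.588% for Igf2 (meninges and choroid plexus), and 0.504% and 0.386% for Mpeg1 (macrophages and microglia). For Fabp4 they were 0.299% and 0.285%, and for Slco2a1 0.0581% and 0.0433% (both known from endothelium). PCR reads do not measure transcript abundance, so these shares do not give the cell content of the samples. The study raised possible choroid plexus tissue in its F1 PFC samples, because Htr2c editing varied widely among them. It measured the marker F5 by PCR in part of them. It reported low expression and no significant correlation with editing at site A or B. The part of such cells in the regional differences was not tested here.

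A sample counted for a site if it had 50 reads or more there, and each region needed 3 such samples, which all 146 sites met. Editing differed between the regions at 7 sites (4.79% of the 146) at an FDR of 0.1 (exact Mann-Whitney U test, two-sided, Benjamini-Hochberg adjustment within nonsynonymous and within other sites), and all 7 were lower in PFC. All 7 change an amino acid: sites A and B of the serotonin receptor gene Htr2c, the R/G sites of the AMPA receptor genes Gria2 and Gria4, the Q/R and Met/Val sites of the kainate receptor gene Grik2, and the Mcrs1 site. They were 17.1% of the 41 nonsynonymous sites tested. No site of the 105 others passed, where the smallest adjusted p was 0.227 (exact test). This split depends in part on the adjustment within classes: with 1 adjustment over all sites, 4 sites were called, without Gria4 R/G, Mcrs1 and Grik2 Met/Val. Among the other sites, the synonymous Son site at 31628529 on chromosome 11 and an Ankrd28 site (position 7168727) had an unadjusted exact p of 0.00433, below the 0.00866 of Mcrs1. Before adjustment, 21 sites had an exact p under 0.05, 20 of them lower in PFC. Over all 146 sites the mean was lower in PFC at 87, higher at 55 and equal at 4, and the median difference (PFC minus AMY) was -0.0667 percentage points.

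**Figure D1:**
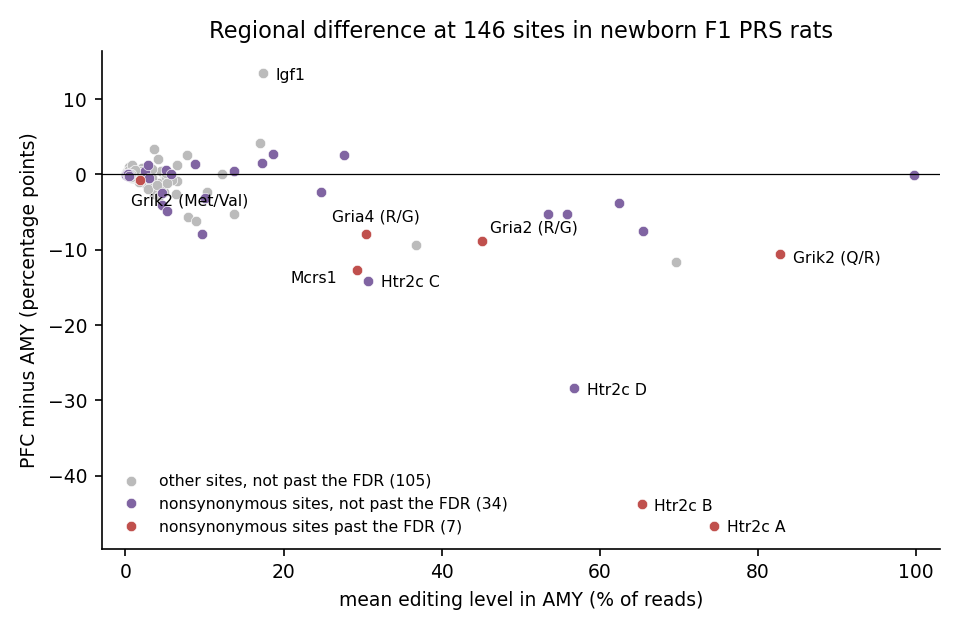
Regional difference (PFC minus AMY, percentage points) against the mean editing level in AMY (% of reads) for the 146 sites in F1 PRS newborns, 1 point per site. The 7 sites past the FDR all lie below 0, Htr2c A and B at -46.7 and -43.8, and most other sites lie near 0.

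The largest differences were those at Htr2c, which encodes the serotonin receptor 5-HT2C. The coding sites lie on chromosome X of rn4, minus strand, with A at 31041849 (Ile to Val) and B, C and D at 2, 7 and 12 bases farther along the transcript. At site A the lowest, median and highest levels were 4.9%, 17.9% and 64.1% in PFC and 65.9%, 75.5% and 80.8% in AMY. The regions did not overlap, although the highest PFC sample came close to the lowest AMY sample. The means were 27.8% ± 24.2 and 74.5% ± 5.92 (SD, n = 6 each), a PFC minus AMY difference of -46.7 points (adjusted p = 0.0222, exact U test).

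At site B (position 31041847, Ile to Met) PFC samples had a lowest level of 0.2%, a median of 14.8% and a highest level of 53.5%. AMY samples had 60.5%, 64.5% and 70.9%. The regions again did not overlap, and the means were 21.4% ± 19.7 and 65.3% ± 4.97 (SD, n = 6 each, adjusted p = 0.0222, exact test). The difference of -43.8 points at site B was close in size to that at site A.

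The PFC samples were far apart from each other at all 4 coding sites, and the AMY samples were not. Replicates 64 and 67 were the highest at every one of them, with 52.0% and 64.1% at site A, whereas the other 4 PFC samples lay between 4.9% and 18.6%. In the shallowest sample, replicate 36, site A was edited at 17.2% of 344 reads (95% Wilson interval 13.5% to 21.5%). In replicate 39, the lowest, it was 4.9% of 5823 reads (4.37% to 5.48%). These intervals cover counting error only.

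At sites C and D, replicates 64 and 67 reached or passed the AMY levels. At site C (position 31041842, Asn to Ser) the lowest, median and highest levels were 1.4%, 8.75% and 41.9% in PFC and 26.3%, 31.3% and 33.9% in AMY. At site D (position 31041837, Ile to Val) they were 0.2%, 16.4% and 69.8% against 51.6%, 55.2% and 67.6%. The highest PFC sample was above the highest AMY sample at both sites. The mean differences of -14.1 and -28.4 points did not pass the test (adjusted p = 0.586 for each, exact U test).

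The order of the sites also varied among PFC samples. In all 6 AMY samples except replicate 53, where D exceeded A and B, site A was the most edited and site C the least. In PFC replicate 64, D (69.8%) exceeded A (52.0%), and in replicate 36 D (21.0%) exceeded A (17.2%).

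**Figure D2:**
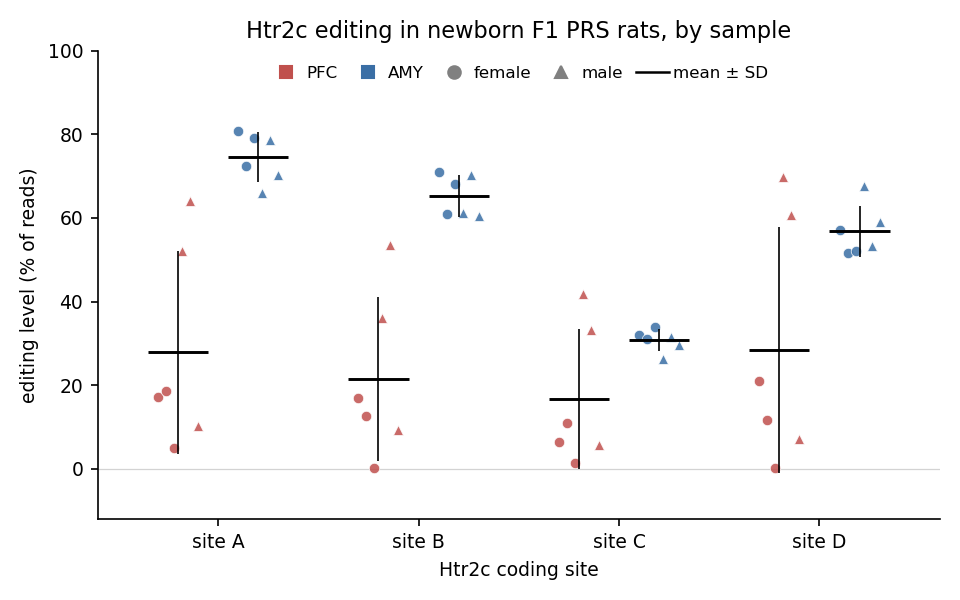
Editing level (% of reads) at the 4 Htr2c coding sites in each F1 PRS newborn sample, PFC in red and AMY in blue, circles for females and triangles for males, with the mean and SD of 6 samples in black. At sites A and B every PFC sample is below every AMY sample, and at C and D 2 male PFC samples are at the level of the AMY or above it.

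In the PFC, the 3 female libraries had numbers in 1 set of 48 consecutive numbers and the 3 male libraries in another, so that sex and set cannot be told apart there. Depth went with both, at 149278 to 1194611 reads in the female PFC samples and 1864334 to 2545906 in the male ones. In the AMY, 2 females were in the first of these sets and 1 female and the 3 males in the second. Among females, site A ranged from 4.9% to 18.6% in PFC and from 72.4% to 80.8% in AMY, a difference of means of -63.9 points. Among males it ranged from 10.2% to 64.1% and from 65.9% to 78.7%, a difference of -29.5 points. At sites A and B the regions did not overlap over all samples, so overlap within a sex or a set was not possible. At site C the difference was -26.0 points among females and -2.20 among males, and at site D -42.6 and -14.2, with overlap among males at both. Whether the regional difference itself differs between the sexes was not tested.

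The share of all reads that covered the Htr2c coding sites (at the deepest of the 4) had a median of 0.469% in PFC and 0.571% in AMY, over ranges that overlapped (0.23% to 0.613% and 0.392% to 0.703%). The Htr2c amplicon was thus read in every sample. The 3′ UTR sites of Htr2c, in another amplicon, had means of 10.5% ± 6.58 and 7.85% ± 3.86 for the first and of 0.583% ± 0.412 and 0.4% ± 0.0632 for the second in PFC and AMY. Neither passed the test (adjusted p = 0.729 and 0.842, exact U test). Over the 6 Htr2c sites the median difference was -21.3 points, against -0.0667 over all sites.

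Among AMPA receptor subunits, which form the main fast excitatory receptors, the R/G sites of Gria2 and Gria4 were less edited in PFC. These sites lie next to the alternatively spliced flip/flop exons, and their editing speeds the recovery of the channel from desensitisation. At Gria2 R/G (chromosome 2, position 172272247, Arg to Gly) the lowest, median and highest levels were 32.4%, 36.8% and 38.0% in PFC and 42.7%, 44.2% and 51.0% in AMY. The regions did not overlap, and both were tight (36.2% ± 2.11 and 45.1% ± 3.05, SD, n = 6 each). The difference was -8.80 points (adjusted p = 0.0222, exact U test), and replicates 64 and 67, high at Htr2c, were at 32.4% and 37.4% here.

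At Gria4 R/G (chromosome 8, position 994881, Arg to Gly) the levels were 17.4%, 23.1% and 28.1% in PFC and 23.9%, 30.8% and 35.4% in AMY, in the same order. The regions overlapped, and the means were 22.5% ± 4.04 and 30.4% ± 4.65 (adjusted p = 0.0887, exact test, n = 6 each). At Gria3 R/G (chromosome X, position 3477800) they were 58.6% ± 4.05 and 62.4% ± 3.11, a difference of -3.82 points that did not pass (adjusted p = 0.494, exact test).

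The Gria2 Q/R site (chromosome 2, position 172288193), which makes AMPA receptors impermeable to calcium, was edited almost completely in both regions, 99.6% ± 0.163 in PFC and 99.7% ± 0.137 in AMY (SD, n = 6 each, adjusted p = 0.586, exact test). The synonymous Gria2 Q site, 4 bases away in the same amplicon, was the 1 site of the 21 with an unadjusted p under 0.05 that was higher in PFC. Its means were 21.2% ± 3.10 and 17.0% ± 1.55 (SD, n = 6 each, adjusted p = 0.280, exact test), and it did not pass. The Gria3 K site had levels of at most 0.7% in both regions. Of the 10 AMPA receptor sites, 2 passed the test, both lower in PFC (4.79% of all 146 sites passed), with a median difference of -0.133 points over the 10, against -0.0667 over all sites.

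Kainate receptor subunits modulate transmitter release and excitability. At the Q/R site of Grik2 (chromosome 20, position 53378633, Gln to Arg), which sets the calcium permeability of kainate receptors, levels were 62.2%, 74.5% and 76.2% in PFC and 81.0%, 82.7% and 84.9% in AMY (lowest, median, highest). The regions did not overlap. The means were 72.2% ± 5.35 and 82.8% ± 1.41 (SD, n = 6 each), a difference of -10.6 points (adjusted p = 0.0222, exact U test), and PFC replicate 67, the highest at Htr2c A, was the lowest here.

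The Met/Val site, 4 bases from it (position 53378637), was edited at a low level, 0.6%, 1.05% and 1.6% in PFC and 1.1%, 1.85% and 2.3% in AMY. It passed the test with overlapping regions (1.05% ± 0.345 and 1.82% ± 0.412, n = 6 each, adjusted p = 0.0740, exact test). The read error rate, which could matter at such levels, was not measured here.

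The 2 recoding sites in another amplicon of Grik2, Y/C (position 53408958) and I/V (position 53408971), were also lower on average in PFC without passing. Y/C ranged from 50.2% to 63.9% in PFC and from 39.3% to 74.5% in AMY, and I/V from 43.6% to 52.5% and from 37.6% to 59.3% (adjusted p = 0.266 for each, exact test). In the AMY both ranges began with replicate 53, and the other 5 AMY samples were at or above 67.5% at Y/C and 52.8% at I/V, above every PFC sample. Without this replicate both sites passed (adjusted p = 0.0254 for each, exact test, differences of -12.8 and -8.36 points). The Grik1 Q/R site (chromosome 11, position 27749588) had 30.2% ± 11.7 in PFC and 27.6% ± 7.26 in AMY (adjusted p = 0.843, exact test). Of the 7 kainate receptor sites 2 passed, both lower in PFC, of which Met/Val passed in only 3 of the 12 leave-outs of a sample. Over all 146 sites 4.79% passed, and the median difference was -0.983 points over the 7 and -0.0667 over all.

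Mcrs1, which encodes a protein of chromatin-modifying complexes, was the 1 site past the FDR outside the receptors. At its Lys to Glu site (chromosome 7, position 138004466) levels were 10.2%, 16.2% and 25.4% in PFC and 21.2%, 30.0% and 39.3% in AMY. The regions overlapped, with means of 16.6% ± 5.44 and 29.3% ± 6.50 (SD, n = 6 each, a difference of -12.7 points, adjusted p = 0.0710, exact U test). Of the 11 sites in the recoded genes Blcap, Copa, Ccni, Tm9sf1, Fabp4, Azin1, Mcrs1 and Gtf3c2 it was the only one to pass. Over all 146 sites 4.79% passed.

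**Figure D3:**
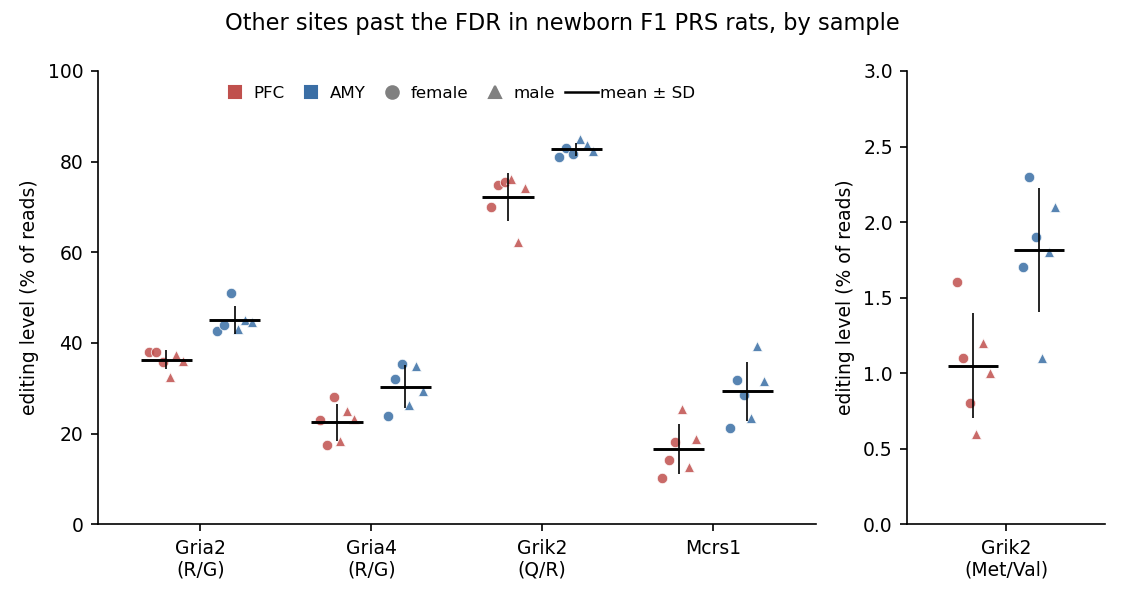
Editing level (% of reads) at the other 5 sites past the FDR in each F1 PRS newborn sample, PFC in red and AMY in blue, circles for females and triangles for males, with the mean and SD of 6 samples in black. The right panel has its own scale from 0 to 3%. The regions do not overlap at Gria2 R/G and Grik2 Q/R and overlap at Gria4 R/G, Mcrs1 and Grik2 Met/Val.

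The 7 sites fell into 2 sets by whether they passed under every setting. Htr2c A, Htr2c B, Gria2 R/G and Grik2 Q/R, the 4 without overlap, passed under all 26 alternative settings of the analysis, including each sample left out in turn. Leaving out samples could not bring overlap to these 4. Lack of overlap also fixed their p at the smallest possible value in the permutation tests of mean and mean logit levels. The same holds for permutation within sex or within library-number sets. The leave-outs and these settings were thus no separate check of the 4 sites. No overlap between the regions was seen at 5 of the 146 sites (3.42%), the fifth being a 3′ UTR site of Ankrd28 (chromosome 16, position 7168727) with 5 PFC samples, which did not pass (0.1% to 3.6% against 4.4% to 20.5%, adjusted p = 0.227, exact test).

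Gria4 R/G, Mcrs1 and Grik2 Met/Val each passed with only 3 of the 12 samples left out in turn. For Gria4 R/G these were PFC replicate 39 and AMY replicates 49 and 53, for Mcrs1 PFC replicate 64 and AMY replicates 49 and 53, and for Grik2 Met/Val PFC replicates 36 and 67 and AMY replicate 53. With any of the others left out they did not (adjusted p up to 0.177, 0.142 and 0.148, exact test), and the number of sites called ranged from 4 (without PFC replicate 37 or 70, or AMY replicate 50, 52, 55 or 60) to 10 (without AMY replicate 53). Without both shallow PFC samples, 36 and 37, 4 sites were called, the 4 without overlap. With labels permuted within library-number sets it was the same 4.

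The other nonsynonymous sites of receptors and channels did not pass. The Gabra3 I/M site (chromosome X, position 158405626), in a GABA-A receptor subunit, had 50.6% ± 3.81 in PFC and 55.9% ± 5.63 in AMY (adjusted p = 0.461, exact test, n = 6 each). In the potassium and calcium channel genes Kcna1, Kcnma1 and Cacna1d, 0 of 5 sites passed and 0 had an unadjusted p under 0.05, with a median difference of 0.383 points. Over all 146 sites 4.79% passed, with a median of -0.0667 points, so 0 of 5 says little about these genes. Flna, whose product cross-links actin, was at 5.73% in both regions and did not pass (adjusted p = 0.961, exact test).

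Adarb1 encodes the editing enzyme ADAR2, which also edits its own transcript. At 4 sites annotated in its 5′ UTR (chromosome 20) no site passed, where 4.79% of all 146 sites did. The median difference was -5.24 points, against -0.0667 over all sites. At position 11709486 the lowest, median and highest levels were 47.2%, 59.6% and 67.6% in PFC and 64.6%, 68.2% and 77.3% in AMY (adjusted p = 0.280, exact test). At position 11709472 they were 24.1%, 27.2% and 30.5% against 28.3%, 33.5% and 52.6% (adjusted p = 0.280, exact test). Before adjustment the exact test gave p = 0.0152 and 0.00866 at these positions, the same as at the called Gria4 R/G and Mcrs1 sites. The called sites were adjusted among nonsynonymous sites and the Adarb1 sites among the others. Both Adarb1 positions are among the 5 largest differences that did not pass, with Htr2c C and D and the 3′ UTR site of the growth factor gene Igf1.

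At Igf1 (chromosome 7, position 24605672) the mean was higher in PFC, 30.8% ± 14.6 against 17.4% ± 14.9 (adjusted p = 0.447, exact test, n = 6 each). The samples ranged from 8.2% to 46.7% in PFC and from 4.1% to 41.3% in AMY, so that the ranges overlapped over most of their width. The medians were 32.1% and 13.1%. In F1 control and F2 PRS newborns the mean was also higher in PFC, by 14.1 and 12.2 points. The regional difference within those groups was not tested.

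The remaining groups held many sites at low levels. Of 32 sites clustered in the 3′ UTRs of Ankrd28, Plekhd1, Usp29 and Psma3, 0 passed, 15 were lower and 17 higher on average in PFC, and the median difference was 0.0983 points. The 4 of them with an unadjusted p under 0.05 were all in Ankrd28. Of 16 sites in the RNA-binding and splicing factor genes Nova1, Son, Celf4, Pum2, Ythdf3 and Ddx19b, 0 passed, 12 were lower in PFC and the median difference was -0.117 points. Over all 146 sites 4.79% passed, 87 were lower in PFC and the median was -0.0667 points.

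By level, 28 sites reached a mean of 10% in at least 1 region. Of these, 6 passed, where 4.79% of all 146 sites did, and their median difference was -4.51 points. Of 59 sites under 1% in both regions, 0 passed and the median difference was -0.0333 points. The SD was larger in PFC than in AMY at 90 of the 146 sites (median SD 1.01 and 0.646 points). The PFC holds the shallow replicates 36 and 37, with medians of 804 and 1108 reads per site, against 4685 to 14498 in AMY samples. The part of depth, sex or library-number set in this spread was not tested.

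Averaged over the 118 sites measured in all 12 samples, editing was 8.30% ± 1.53 in PFC and 10.2% ± 0.400 in AMY (SD, n = 6 each, exact permutation p = 0.0281, two-sided). The PFC samples had a lowest mean of 6.85%, a median of 7.60% and a highest of 11.0%, and the AMY samples 9.75%, 10.1% and 10.7%. PFC replicate 64 was above all AMY samples, and the other 5 PFC samples were below all of them. The difference of -1.86 points became -0.760 without the 4 Htr2c coding sites (exact permutation p = 0.0974) and -1.43 without both shallow PFC samples (exact permutation p = 0.0714).

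The same average was taken for nonsynonymous and for other sites apart. Over 36 nonsynonymous sites the samples ranged from 16.8% to 22.8% in PFC and from 22.9% to 26.2% in AMY, with means of 19.3% ± 2.50 and 24.9% ± 1.24. The difference was -5.57 points (exact permutation p = 0.00216, the smallest that 6 samples against 6 can give), and -2.11 points without the Htr2c sites (exact permutation p = 0.0108). Over 82 other sites the means were 3.48% ± 1.17 and 3.72% ± 0.328, a difference of -0.232 points (exact permutation p = 0.708). A test of nonsynonymous against other sites was not made.

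**Figure D4:**
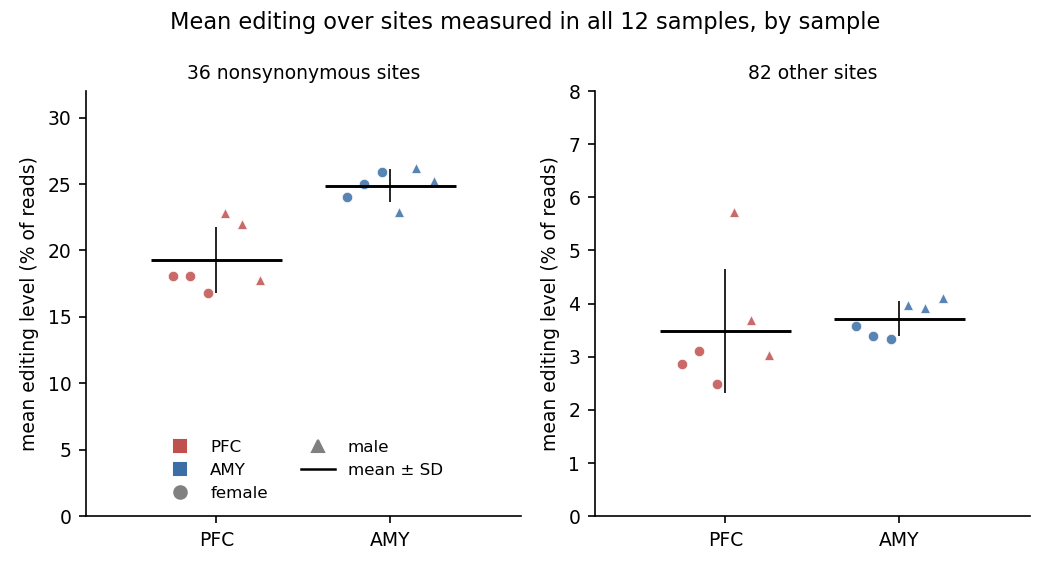
Mean editing level (% of reads) per F1 PRS newborn sample over the 36 nonsynonymous and the 82 other sites measured in all 12 samples, PFC in red and AMY in blue, circles for females and triangles for males, with the mean and SD of 6 samples in black. For nonsynonymous sites all PFC samples are below all AMY samples, and for other sites the regions overlap, with PFC replicate 64 at 5.73%.

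Whether the difference between the regions was particular to newborns of this line was tested against F1 control newborns (5 PFC and 5 AMY samples, offspring of mothers that were not stressed). The control samples came from 1 female and 4 males in PFC and from 2 females and 3 males in AMY. At 0 of 146 sites (0%) did the regional difference differ between the lines at an FDR of 0.1 (exact permutation test of the difference of differences). Before adjustment 7 sites had a p under 0.05, and the smallest adjusted p was 0.442. On the logit scale and with at least 200 reads per sample, 0 sites were called as well.

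At Htr2c A the F1 controls had 63.6% ± 20.1 in PFC and 82.0% ± 7.97 in AMY (SD, n = 5 each), a regional difference of -18.4 points against -46.7 in the PRS line. The difference between these, -28.4 points, did not pass (exact permutation p = 0.113, adjusted p = 0.775). Of the PFC samples, 1 of 5 in controls and 3 of 6 in the PRS line were female. In the PRS line the regional difference at site A was -63.9 points among females and -29.5 among males. The part of sex or library-number set in the gap between the lines was not tested. At site B the regional differences were -15.2 in controls and -43.8 in the PRS line (exact permutation p = 0.0895, adjusted p = 0.775). At site C they were -6.32 and -14.1, and at site D -4.52 and -28.4 (adjusted p = 0.908 and 0.775, exact permutation test).

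At the other called sites the 2 lines had values of the same sign. Grik2 Q/R had a regional difference of -10.7 points in controls and -10.6 in the PRS line, and Mcrs1 -12.4 and -12.7. Gria2 R/G had -15.5 in controls and -8.80 in the PRS line, and Gria4 R/G -16.9 and -7.90 (exact permutation p = 0.208 and 0.0507, adjusted p = 0.775 for each). Grik2 Met/Val had -1.18 and -0.767. A difference between the lines that does not pass with 5 and 6 samples does not show that they are alike.

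The next generation of the line, F2 PRS newborns (7 PFC and 6 AMY samples, grandoffspring of stressed females), was compared in the same way. At 0 of 146 sites (0%) did the regional difference differ between F1 and F2 at an FDR of 0.1, with 3 sites under an unadjusted p of 0.05 and a smallest adjusted p of 0.494 (exact permutation test). On the logit scale and with at least 200 reads, 0 sites were called as well. The F2 samples came from 5 females and 2 males in PFC and from 5 females and 1 male in AMY.

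In F2, the regional difference at Htr2c A was -22.0 points (61.0% in PFC and 83.0% in AMY) and at site B -20.4, against -46.7 and -43.8 in F1 (exact permutation p = 0.0860 and 0.0616). At site D it was 1.71 points in F2 and -28.4 in F1 (exact permutation p = 0.0323, adjusted p = 0.494), and at site C -1.55 and -14.1 (exact permutation p = 0.0775). Grik2 Q/R had -8.20 points in F2 and Mcrs1 -11.1. Gria2 R/G had -8.91, next to -8.80 in F1, and Gria4 R/G -5.52.

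Mean editing gave regional differences of -1.90 points in F1 PRS and -1.66 in F1 control newborns over the 116 sites measured in all of these samples (exact permutation p = 0.802). Over the 114 sites shared with F2 PRS newborns they were -1.81 in F1 and -0.817 in F2 (exact permutation p = 0.229).

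**Figure D5:**
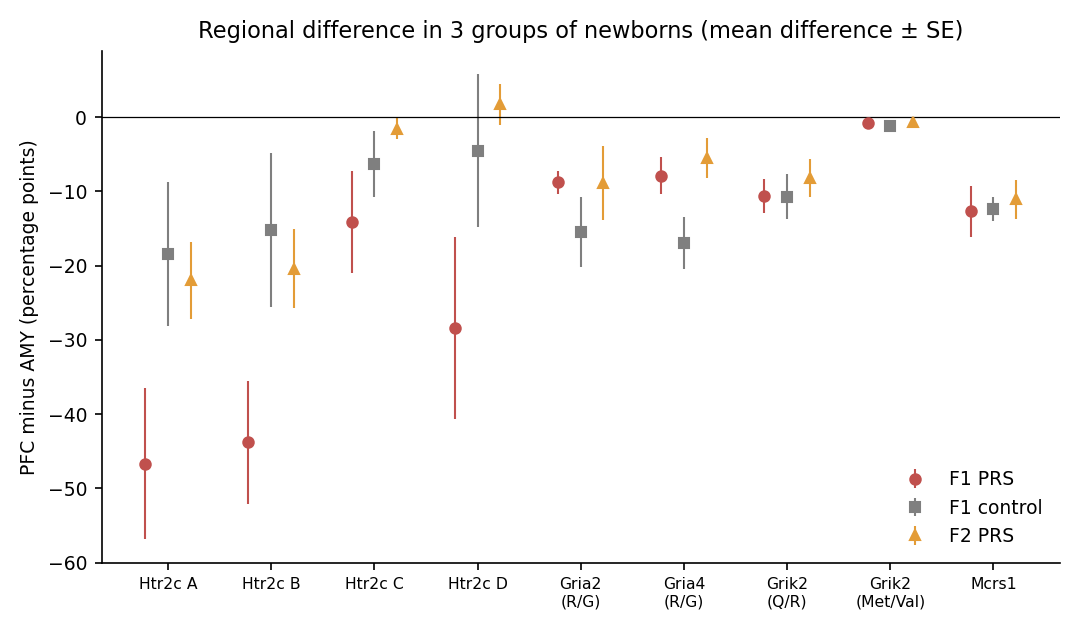
Regional difference (PFC minus AMY, percentage points, mean difference ± SE) at the 7 called sites and at Htr2c C and D in F1 PRS (6 and 6 samples), F1 control (5 and 5) and F2 PRS newborns (7 and 6). At Htr2c A the values are -46.7, -18.4 and -22.0, and at Grik2 Q/R -10.6, -10.7 and -8.20.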

How the data were processed

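Punches of PFC and AMY were assayed by mmPCR-seq. According to the study's methods and the processing notes, the authors mapped the reads with BWA, allowing 9 mismatches, to the rat genome rn4 with added splice-junction sequence. The deposited files hold counts (reads and edited reads) at 179 listed sites per sample and the level as a fraction rounded to 3 decimals, shown here as a percent. The authors' minimum of 50 reads was applied here, and the 146 sites of the study were used. A sample with 50 reads and a level of 50% has a 95% Wilson interval of 36.6% to 63.4%, and 3 edited reads of 50 are 6%. Intervals cover counting error only, since PCR reads carry no molecular identifiers.

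Samples were grouped by their labels. Each site was put to a Mann-Whitney U test, as in the study's methods, here two-sided and exact over every assignment (924 for 6 against 6, smallest p 0.00216), with Benjamini-Hochberg adjustment within nonsynonymous and within other sites at an FDR of 0.1. Mean editing and differences of differences were tested by exact permutation, the latter permuting line or generation within region. Named sites are all called sites, the nonsynonymous sites of the Htr2c, Gria, Grik and Gabra3 genes and the 5 largest differences not called, and any site called in a difference of differences. Other sites were named after their values were seen. The samples, sites and gene lists were chosen with earlier results of these data known. The steps were tested on simulated data. Alternatives were other statistics, scales, coverage minimums, adjustments, sets of sites and samples, and permutation within sex or within sets of 48 library numbers. Unrounded levels, leaving out PFC samples under 500000 reads and leaving out the Htr2c sites were chosen after seeing the data. Results of 2 gene lists are not reported here. Primers were copied from the study's primer list. Software: numpy 2.4.6, scipy 1.17.1, pandas 2.3.3 and, for figures, matplotlib 3.10.9, under Python 3.11.15.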

Additional observations from a re-analysis of the deposited data

Results flagged for a closer look

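In 3 of 40 groups of 6 samples (19 named sites and mean editing, each in both regions) 1 sample stood apart from the others by more than Dixon's 95% limit for 6 values (0.625 of the range). Chance gives about 1 in 20 such groups. In the AMY, replicate 53 was the lowest at the Grik2 Y/C site, with 39.3% of 11936 reads against 67.5% in the next sample. It was also the lowest at the Grik2 I/V site of the same amplicon, with 37.6% of 11926 reads against 52.8%. AMY replicate 52 was the highest at Gria2 R/G, with 51.0% of 27251 reads against 45.1% in the next sample. The causes were not tested.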

How the results depend on the processing

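The count of 7 sites fell to 4 with levels pooled over reads, with adjustment over all sites together, at an FDR of 0.05, within library-number sets and without both PFC samples under 500000 reads. The sites lost were Gria4 R/G, Mcrs1 and Grik2 Met/Val each time. Leaving out each sample in turn gave 4 to 10 sites, the added ones being Grik2 Y/C, Grik2 I/V and Kcna1 without AMY replicate 53. Within sex 8 were called, the added one in Nova1. Every site called under any setting was lower in PFC. Mean editing (-1.86 points) was past p = 0.05 within sex and within sets (exact permutation p = 0.02 for each) and over all leave-outs of 1 sample (-2.35 to -1.57 points, exact permutation p up to 0.0476). It was not over other sites alone (-0.232), for the median over sites (-0.217), on the logit scale (-0.272, exact permutation p = 0.0844), without the Htr2c coding sites (-0.760) and without the shallow PFC samples (-1.43). Directions turned for uncalled values: Grik1 (2.60) to -1.63 pooled and -2.85 without shallow samples, and Gria3 K (0.0333) to -0.0276 and -0.0583, and from -0.0233 to 0.0767 over leave-outs. For differences of differences over leave-outs, mean editing against controls ran from -0.756 to 0.0593, Grik2 Q/R from -0.73 to 2.07, Mcrs1 from -2.10 to 1.66 and, against F2, Gria2 R/G from -0.358 to 1.30 and Mcrs1 from -3.43 to 0.333. The causes were not tested. No paired analysis was possible because the labels do not say whether any PFC and AMY samples came from the same pup. Depth limits sites near 0 in the shallow PFC samples, whose low levels rest on few edited reads.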

Other observations

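The files list 33 further positions outside the 146 sites. Only 2 of them had at least 50 reads in 3 samples of each region, and all levels there were 0%.

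Before adjustment, the regional differences of F1 PRS and F1 control newborns had opposite signs at several sites inside and outside the receptors, none of which passed the FDR. At the intronic Dffa site (chromosome 5, position 166189792), in the gene of an inhibitor of a DNA-cutting nuclease, it was -5.65 points in the PRS line and 4.70 in controls (exact permutation p = 0.0126, adjusted p = 0.442). At the neighbouring intergenic sites IG2 and IG3 (chromosome 3) it was -2.62 and -2.32 points against 0.92 and 1.56 (exact permutation p = 0.0093 and 0.0061, adjusted p = 0.442 for each). At the synonymous Gria2 Q site, in an AMPA receptor gene, the regional difference was 4.22 points in the PRS line and -1.72 in controls (exact permutation p = 0.0315, adjusted p = 0.551). These sites were chosen after their values were seen.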
